A study of Mus musculus with 12 samples.

Results

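Alternative activation of macrophages is a program that interleukin-4 and interleukin-13 induce through the transcription factor STAT6, and Retnla, Chil3, Arg1 and Mrc1 are its textbook readouts. Folr2, Lyve1, Cd163, Cbr2 and Pf4 are used as marks of resident tissue macrophages, many of which lie along vessels, and Trem2 is a lipid-sensing receptor of lipid-associated macrophages. The 10 genes Retnla, Folr2, Mrc1, Cd163, Lyve1, Cbr2, Pf4, Arg1, Chil3 and Trem2 were followed here in macrophages of the mouse mammary gland, as 10 of the 27998 genes listed. Each was found by its symbol. A cell was taken as a macrophage when it held at least 5 unique molecular identifiers (UMIs, each standing for 1 captured transcript) of C1qa, C1qb and C1qc together, which encode complement C1q, and no UMI of Pdgfra, a fibroblast receptor. None of the 10 genes entered that gate. It held 1105 of the 46257 cells that passed the filters, 43 to 160 per library, and the other 45152 cells were the comparison.

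The cells came from number 4 mammary glands of female C57BL/6J mice aged 43 weeks, in 12 groups of 1 library each, and the labels do not give the number of animals behind a library. Apart from the Intact group, the mice had received 4-vinylcyclohexene diepoxide (VCD; 160 mg/kg/day for 15 days), a chemical that depletes ovarian follicles and so leaves residual ovarian tissue in place. VCD_Vehicle received no hormone and no polybrominated diphenyl ethers (PBDEs, flame retardants), VCD_E2 received estradiol (E2; 1 µg per animal per day for 1 week), VCD_E2_P4 received E2 and progesterone (P4; 1 mg per animal per day for 1 week), and VCD_E2_ICI received E2 with 1 dose of the estrogen receptor antagonist ICI (5 mg). VCD_Low_PBDE, VCD_Low_E2 and VCD_Low_E2_P4 were fed a low dose of PBDE-47, PBDE-100 and PBDE-153 (0.05, 0.0028 and 0.0063 mg/kg/day) for 20 weeks. VCD_High_PBDE, VCD_High_PBDE_E2 and VCD_High_PBDE_E2_P4 were fed 1, 0.056 and 0.126 mg/kg/day for 1 week, so the dose and the length of PBDE exposure cannot be told apart. Mice without PBDEs ate a matched diet that contained DMSO, and sesame oil was the vehicle of VCD and of the hormones. VCD_Vehicle_NormEnv was a further vehicle group with possible exposure to PBDEs from plastic cages.

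The libraries held 2497 to 10006 barcodes and 41737881 to 109224969 UMIs, and the macrophages of a library summed to 560022 to 2573834 UMIs (median per macrophage 6126 to 16561). All 10 macrophage markers on a list of general knowledge were higher in the gated cells than in other cells and all 6 fibroblast markers were lower (edgeR quasi-likelihood test), of which Pdgfra was set to 0 by the gate and 5 were free to vary. Of the 5 monocyte markers, Ccr2 was higher in the gated cells and Vcan, Plac8 and Fn1 were lower. Against other immune cells 2 of these 5 were higher, with Fn1 at a log2 fold change of 1.37, and 3 were lower (median -1.11). Against all other cells 1 of 6 dendritic cell, 1 of 4 neutrophil and 1 of 3 B cell markers were called higher, and 3 neutrophil markers lower. Against other immune cells all 6, 4 and 3 of them were lower. The adipocyte markers Cidec and Adipoq were also called higher in the gated cells, at no more than 4.48 and 1.21 CPM in any library. At the edge of the gate, the 22 macrophages with exactly 5 C1q UMIs held a Retnla UMI in 16 and a Folr2 UMI in 1, and the 40 cells with 4 C1q UMIs and no Pdgfra UMI held Retnla in 32 and Folr2 in 8. VCD_Low_E2_P4 stood apart: its macrophages had the fewest UMIs per cell, fibroblast markers summed there to 4719 UMIs per 1000000 UMIs of its summed macrophages (CPM) against at most 974 in any other library, and 56 of the 61 macrophages in which fibroblast markers took over 1% of UMIs were in it. Between libraries, 740 barcodes were shared, 274 among passing cells and 0 among macrophages.

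Retnla, which encodes the secreted resistin-like factor RELMα, was the most abundant of the 10 in all 12 libraries. It stood at 19076 CPM ± 4841 (SD, n = 12 libraries) in macrophages, and at 13912 CPM in its lowest library. Pf4, a chemokine also stored in platelets, followed at 1906 ± 438 CPM, and Mrc1, the mannose receptor CD206, at 929 ± 150 CPM. These are counts of transcript 3′ ends, which do not grow with transcript length, so the levels of the genes were set side by side without a length correction. Folr2, a folate receptor, stood at 770 ± 194 CPM, Cbr2, a carbonyl reductase, at 405 ± 95.7 CPM and Cd163, the haemoglobin scavenger receptor, at 333 ± 91.3 CPM. Lyve1, a hyaluronan receptor, stood at 196 ± 65.3 CPM and Trem2 at 80.3 ± 25.4 CPM. The remaining 2 genes were close to absent: Chil3, the chitinase-like protein Ym1, was at 31.3 ± 36.2 CPM and Arg1, the arginine-degrading enzyme arginase, at 4.45 ± 7.61 CPM. Neighbours in this order were separated in every library for Retnla over Pf4, Pf4 over Mrc1, Folr2 over Cbr2 and Lyve1 over Trem2. Mrc1 exceeded Folr2 in 10 of 12 libraries, Cbr2 exceeded Cd163 in 11, Cd163 exceeded Lyve1 in 11, Trem2 exceeded Chil3 in 10 and Chil3 exceeded Arg1 in 8.

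**Figure D1:**
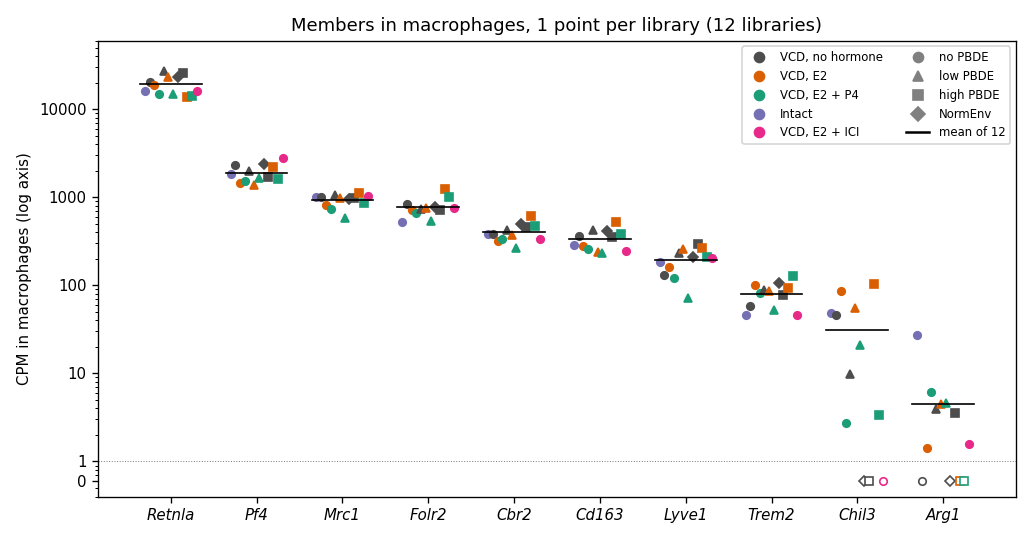
CPM of the 10 genes in the summed macrophages of each library (log axis, libraries at 0 drawn as open symbols below the dotted line), with 1 point per library, colours for hormone, symbols for PBDE and a bar for the mean of 12 libraries. Retnla sits near 19076 CPM and Arg1 near 4.45 CPM, and Chil3 and Arg1 are at 0 in 3 and 4 libraries.

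The genes that share a textbook program stood far apart in the summed macrophages, and the 250 bases before the transcription start of Retnla and Chil3 are shown to set the pair side by side. RefSeq (GRCm38.p6) gave this stretch for 8 of the 10 genes, with 2 start sites for Folr2, and starts follow RefSeq. Capitals mark a match to the STAT6 motif TTCNNNNGAA, which reads the same on both strands, 145 to 136 bases before the start.
Retnla, chr16:48842359-48842608, plus strand: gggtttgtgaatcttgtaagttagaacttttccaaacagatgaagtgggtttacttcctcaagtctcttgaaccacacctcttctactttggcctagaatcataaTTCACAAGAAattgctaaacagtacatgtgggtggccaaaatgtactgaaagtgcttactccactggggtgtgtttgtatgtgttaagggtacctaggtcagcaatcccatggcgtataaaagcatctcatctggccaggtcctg
Chil3, chr3:106167565-106167814, minus strand: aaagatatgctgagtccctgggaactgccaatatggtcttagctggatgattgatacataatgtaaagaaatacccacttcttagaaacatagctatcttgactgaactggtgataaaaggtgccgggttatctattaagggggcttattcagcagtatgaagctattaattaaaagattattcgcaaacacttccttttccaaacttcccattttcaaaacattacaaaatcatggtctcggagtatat
The motif was present in Retnla alone among the 8 genes and in 5.85% of 32851 promoter windows of the same length. Only this spacing between TTC and GAA was searched, and the Chil3 window holds the pair at a shorter spacing (ttcttagaa). GAGGAA, the core of ETS factor motifs such as that of PU.1, was found on either strand in Retnla, Mrc1, Cbr2, Pf4 and Trem2 and in 23.3% of all windows. TGCTGA, a core of MAF motifs, was found in Retnla, Folr2 and Chil3 and in 16.1% of all windows, with 1 match in Retnla overlapping a match to the next motif. The estrogen response element half-site TGACC was found in Retnla, Folr2, Cbr2 and Trem2 and in 35.2% of all windows. These matches describe letters in these windows and not bound sites. Retnla lies at chr16:48842551-48844461 (plus strand; GENCODE M21 on GRCm38) and Chil3 at chr3:106147554-106167564 (minus strand). The other genes lie at chr7:101839988-101857194 (Folr2, minus), chr2:14229392-14332057 (Mrc1, plus), chr6:124304656-124330527 (Cd163, plus), chr7:110850607-110863239 (Lyve1, minus), chr11:120729489-120732114 (Cbr2, minus), chr5:90772435-90773383 (Pf4, plus), chr10:24915221-24927484 (Arg1, minus) and chr17:48346401-48354147 (Trem2, plus), so no pair overlapped.

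Which of the genes mark the macrophages was asked by comparing sums over macrophages with sums over other cells of the same library. Of the 10 genes, 8 were higher in macrophages, with 27.8% of the 15462 genes tested called higher and 42.9% called lower. Cbr2 led with a log2 fold change of 7.40 (SE 0.21), followed by Folr2 at 7.32 (SE 0.24), Pf4 at 7.31 (SE 0.34), Cd163 at 6.72 (SE 0.12), Mrc1 at 6.48 (SE 0.15), Retnla at 6.08 (SE 0.13), Trem2 at 5.75 (SE 0.21) and Lyve1 at 5.04 (SE 0.49). Each of these 8 had an adjusted p below the threshold of 0.05 in an edgeR quasi-likelihood test blocked by library. Arg1 (log2 fold change 0.01, SE 0.46, 95% interval -0.95 to 0.98; adjusted p = 0.98) and Chil3 (0.71, SE 0.55, 95% interval -0.44 to 1.86; adjusted p = 0.25) did not pass the same edgeR test. Over 22 other settings and comparison cells Arg1 ran from -2.73 to 3.08 and Chil3 from -2.69 to 6.92, so the sign of both depended on them.

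Against other immune cells (Ptprc-positive, no C1q and no Pdgfra UMI; 5195 cells), the 10 genes split into 8 higher and 2 lower, where 31.7% of 11371 genes were called higher and 32.9% lower. Pf4, Folr2, Cbr2 and Lyve1, which are among the 8, were close to 0 in the other immune cells. They held 148, 59, 56 and 21 UMIs there over the 12 libraries, with medians of 1.93, 0.647, 1.20 and 0 CPM. Their entry to the test and its direction thus rested on their counts in macrophages, so their calls add no support. Their fitted fold changes depend on few UMIs and are not ranked. Lyve1 was at 0 there in 7 of 12 libraries. For the genes with more UMIs there, the log2 fold changes were 4.60 (Mrc1), 4.51 (Cd163), 4.15 (Retnla) and 3.15 (Trem2). Arg1 and Chil3 were lower in macrophages than in the other immune cells, by edgeR log2 fold changes of -2.73 (SE 0.38; adjusted p = 5.6e-06) and -2.69 (SE 0.53; adjusted p = 0.00022). Chil3 reached 188 CPM on average in other immune cells (34.4 to 335 CPM over 12 libraries) and Arg1 30.8 CPM (15.9 to 58.3 CPM). Against fibroblasts (Pdgfra-positive cells without Ptprc or C1q; 31545 cells), Arg1 (3.08) and Chil3 (6.92) were higher in macrophages as well, on 334 and 117 UMIs in the fibroblasts. Both were close to 0 in fibroblasts, with medians of 0.176 and 0.116 CPM. In macrophages 5 cells held 62.7% of the Arg1 UMIs and 5 cells 78.9% of the Chil3 UMIs. These 2 calls thus add no support either.

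**Figure D2:**
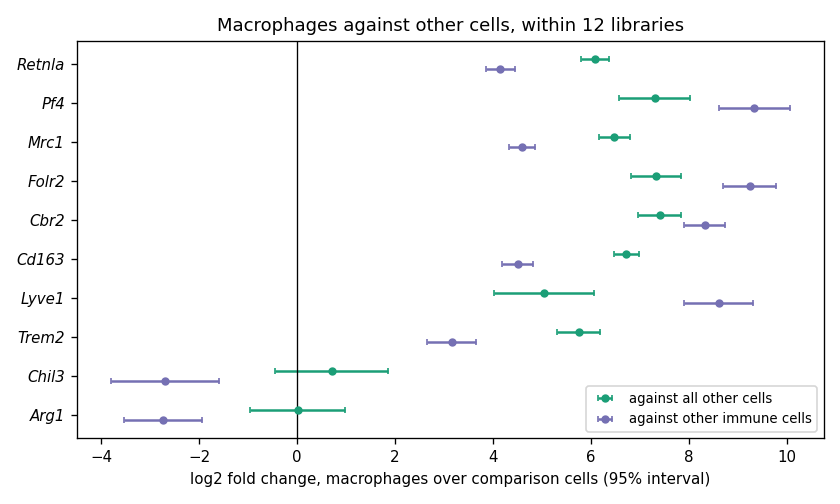
Log2 fold change of each gene in macrophages over all other cells (green) and over other immune cells (purple) within 12 libraries, with points for the edgeR estimate and bars for the 95% interval. Of the 10 genes, 8 lie right of 0 in both comparisons, while Chil3 and Arg1 straddle 0 against all other cells and lie at -2.69 and -2.73 against other immune cells, and the purple points of Pf4, Folr2, Cbr2 and Lyve1 rest on 148, 59, 56 and 21 UMIs in the other immune cells.

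The cells that held the genes' UMIs showed where the rest of the signal lay. Macrophages held 76.7% of Cbr2 UMIs, 75.1% of Folr2, 69.8% of Pf4, 68.0% of Cd163, 63.3% of Mrc1, 55.9% of Retnla and 53.3% of Trem2. For Folr2 another 21.8% was in cells with 5 or more C1q UMIs that also held a Pdgfra UMI (334 cells), which the gate left out. Retnla was more widely spread: of its 480824 UMIs, 13.6% were in those 334 cells, 14.0% in 2503 cells with 1 to 4 C1q UMIs and 12.1% in other immune cells, where it reached 602 to 2242 CPM. A Retnla UMI was present in 73.9% of macrophages, 17.1% of other immune cells and 15.5% of fibroblasts, and after thinning each cell to 3000 UMIs in 70.9%, 9.70% and 3.1% (959, 4669 and 30807 cells deep enough). Fibroblasts, at a median depth per library of 14493 to 22614 UMIs per cell, give the share of a cell type not known for Retnla, and where their UMIs come from was not tested. The 240 other immune cells with at least 10 Retnla UMIs were led by Upb1, Lyz1 and Fcrls, and were of mixed character by the marker lists. All 6 dendritic cell markers were above their level in all cells (summed 366 CPM against 29.0 CPM, of which Cd209a alone made up 300.2 CPM), as were 7 of 10 macrophage markers (12320 against 1003 CPM) and 3 of 3 T cell markers (251 against 64.4 CPM).

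Lyve1 was shared between macrophages and endothelial cells in a way that varied between libraries. With the libraries pooled, endothelial cells (at least 2 Pecam1 UMIs and none of the other classes' marks, 137 cells) held 51.6% of its UMIs and macrophages 27.9%, and the level in endothelial cells had a median of 1336 CPM over 12 libraries (0 to 6282 CPM, with 1 to 65 such cells per library, 65 of them in VCD_Low_E2_P4). Without VCD_Low_E2_P4 the pooled shares were 50.6% and 29.9% (chosen after seeing the data). Endothelial cells held more Lyve1 UMIs than macrophages in 5 of 12 libraries (Intact, VCD_E2, VCD_Low_E2, VCD_Low_E2_P4 and VCD_Vehicle_NormEnv) and fewer in the other 7, where macrophages held 45.3% to 82.1%. Those 5 libraries held 8, 7, 16, 65 and 18 endothelial cells, in that order, and the other 7 held 1 to 6 each. The 132 other cells with at least 5 Lyve1 UMIs were led by Ccl21a, Mmrn1, Reln, Flt4 and Cldn5, genes of lymphatic endothelium, and their endothelial markers summed to 821 CPM against 12.1 CPM in all cells. In the same 132 cells 10 of 10 macrophage markers were also above their level in all cells (3441 against 1003 CPM), and 858 Lyve1 UMIs (8.96%) lay in cells with 5 or more C1q UMIs and a Pdgfra UMI. Lyve1 is a standard mark of lymphatic vessels, so in this gland its total over all cells is not a measure of macrophages. Of the Pf4 UMIs outside macrophages, most lay in cells with 5 or more C1q UMIs and a Pdgfra UMI (6162 UMIs, 17.2% of all), and 3738 UMIs (10.4%) lay in cells of no named class. The 42 other cells with at least 50 Pf4 UMIs had the platelet genes Treml1, Ppbp, Clec1b and Gp9 among their 6 leading genes, and 10 of 10 macrophage markers were above their level in all cells as well (7358 against 1003 CPM).

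Chil3 and Arg1 belonged mostly to other cells. Macrophages held 4.03% of 12343 Chil3 UMIs and 2.10% of 2806 Arg1 UMIs, while other immune cells held 71.4% and 49.9%. The 187 other immune cells with at least 10 Chil3 UMIs were led by Gm9733, Cd177, Sirpb1c, F10, Hp, Ms4a4c and Lyz2. In them 4 of 5 monocyte markers (Ly6c2 at 1144 CPM against 74.6 CPM in all cells) and 9 of 10 macrophage markers were above the level in all cells, and 1 of 4 neutrophil markers was, with S100a8 at 13.5 CPM and Retnlg at 0. The 61 cells with at least 10 Arg1 UMIs were led by Fam25c, Ctsr, Wfdc2, Krt18 and Krt7, and their epithelial markers summed to 7645 CPM against 86.9 CPM in all cells. In the same 61 cells 5 of 6 dendritic cell, 2 of 3 T cell and 5 of 10 macrophage markers were above their level in all cells. Cells of the epithelial class held 7.45% of Arg1 UMIs, and the other immune cells with Arg1 were not typed further. Within macrophages the 59 Arg1 UMIs lay in 21 cells, 17 of them in 1 cell of the Intact library, and the 498 Chil3 UMIs lay in 30 cells, 165 of them in 1 cell of VCD_E2.

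**Figure D3:**
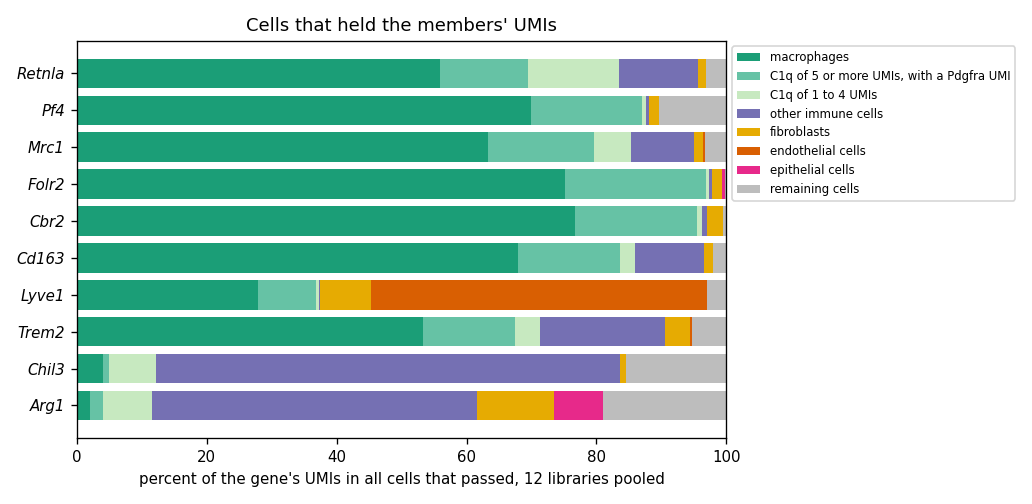
Percent of each gene's UMIs held by each class of cells, with the 12 libraries pooled and the colours for the classes. Macrophages hold 76.7% of Cbr2 but 4.03% of Chil3 and 2.10% of Arg1, other immune cells hold 71.4% of Chil3, and endothelial cells hold 51.6% of Lyve1.

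How many macrophages held a UMI of each gene was read after thinning, and a cell without one may still express the gene. At 3000 UMIs per cell, Mrc1 was found in 79.4% of 959 macrophages, Pf4 in 75.9%, Folr2 in 58.0%, Cbr2 in 52.3%, Cd163 in 36.6%, Lyve1 in 22.8% and Trem2 in 19.6%. Of the 7 genes Retnla, Folr2, Mrc1, Cd163, Lyve1, Cbr2 and Pf4, 11.6% of macrophages held a UMI of all 7 and 6.88% of none. Chil3 was found in 2.09% and Arg1 in 0.938% of macrophages, below their shares of 5.78% and 5.20% in other immune cells.

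Macrophages with a Lyve1 UMI (219) and without one (740) were set apart in the other genes. Averaged over 12 libraries, Lyve1-positive macrophages held 5.52 Folr2 UMIs of 3000 against 1.62, 4.91 Mrc1 UMIs against 2.71, 2.29 Cd163 UMIs against 0.790, 2.71 Cbr2 UMIs against 1.02 and 9.66 Pf4 UMIs against 6.06, each higher in 12 of 12 libraries. Retnla was at 77.1 against 48.7 UMIs and higher in 10 of 12 libraries, and Trem2 at 0.242 against 0.260 UMIs, higher in 6 of 12. MHC class II genes, which present antigen, were lower in Lyve1-positive macrophages: H2-Aa was at 13.9 against 26.9 UMIs and Cd74 at 39.3 against 69.0 UMIs, lower in 12 of 12 libraries. Lpl (0.951 against 2.88 UMIs) and Lgals3 (1.48 against 3.81 UMIs), both of the lipid-associated list, were also lower in 12 of 12. Of the same list, Cd9 was lower in 11, Spp1 in 10 and Gpnmb in 5 libraries, with Gpnmb higher in 3, each at no more than 0.180 UMIs. Other genes of that list, apart from these, were not read in this split. The split uses a gene with few UMIs per cell, so cells without a Lyve1 UMI include some that express it. Across the 959 macrophages, Spearman correlations of UMIs were 0.634 for Folr2 and Cbr2, 0.551 for Folr2 and Lyve1 and 0.544 for Folr2 and Mrc1, positive in 12 of 12 libraries, and -0.300 for Folr2 and H2-Aa, negative in 12 of 12. These points share their libraries and are given as a description.

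**Figure D4:**
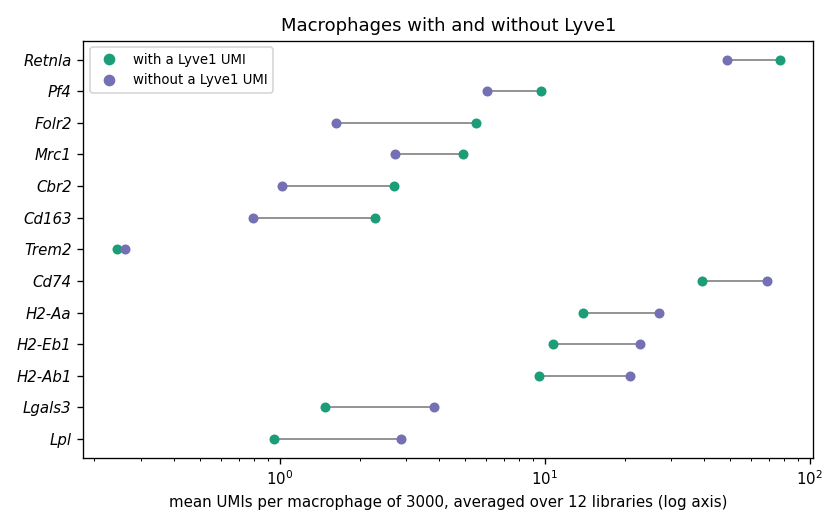
Mean UMIs per macrophage thinned to 3000 UMIs, averaged over 12 libraries (log axis), in macrophages with a Lyve1 UMI (green) and without one (purple). Folr2 lies at 5.52 against 1.62 UMIs and H2-Aa at 13.9 against 26.9 UMIs.

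The 20 macrophages with a Chil3 UMI after thinning differed from the 939 without one. They held 2.3 Retnla UMIs on average against 53.5, 0.05 Folr2 UMIs against 2.58 and 1.1 Pf4 UMIs against 6.53. Ly6c2, a monocyte surface gene, stood at 1.7 against 0.274 UMIs and Ccr2 at 2.55 against 1.25 UMIs. Chil3 and Retnla, both readouts of the interleukin-4 program, were thus high in different cells of the gate. With 20 cells over 9 libraries this is a description of those cells.

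Effects of the hormones were read in the 9 VCD libraries that cross hormone (none, E2, E2 + P4) with PBDE (none, low, high), with hormone and PBDE as additive terms, which leaves 4 residual degrees of freedom. Of the 10 genes, 9 had enough counts to be tested, Arg1 being the exception, and none of the 9 passed the adjusted threshold for any of the 4 contrasts. The contrasts share libraries and are not independent. Beside each first count stands the share of all 8917 genes called, and genes are named where their unadjusted p was under 0.05. Where the libraries of groups separate without overlap, the share of all genes that do so was not counted, and the separation is a description. In sums of this kind, fewer cells of a type and less RNA per cell cannot be told apart. Gated cells made up 1.36%, 1.76% and 1.68% of passing cells without hormone (no, low and high PBDE). Their share was 3.57%, 2.83% and 2.96% with E2 and 3.59%, 2.11% and 5.26% with E2 + P4. The part of this share in the values of the members was not tested.

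Retnla was the member with the smallest p for hormone against no hormone. Without hormone it stood at 20443 CPM (VCD_Vehicle), 27314 CPM (VCD_Low_PBDE) and 26038 CPM (VCD_High_PBDE). With E2 it stood at 18989, 22925 and 13912 CPM in the same PBDE order, and with E2 + P4 at 14678, 14897 and 13991 CPM. All 3 E2 + P4 libraries lay below all 3 without hormone, whereas the E2 library of the low PBDE arm lay above VCD_Vehicle. Within PBDE levels the ratio to no hormone was below 1 in 6 of 6 pairs (0.534 to 0.929), and each library without hormone serves in 2 of them. The log2 fold change was -0.62 (SE 0.12, 95% interval -0.88 to -0.36; edgeR quasi-likelihood test, unadjusted p = 0.00034, adjusted p = 0.11), with 0% of genes called and 10.8% at an unadjusted p under 0.05. Intact stood at 16221 CPM, VCD_E2_ICI at 16124 CPM and VCD_Vehicle_NormEnv at 23380 CPM. The names of the deposited tables carry 1 of 2 tags of unstated meaning. Within each tag every VCD library without hormone was above every one with hormone, VCD_Vehicle_NormEnv and VCD_E2_ICI, both outside the fit, included. The share of all genes that separate in this way was not counted. With the tag as a term the log2 fold change was -0.63 and the edgeR adjusted p 0.52. Markers of other cells moved with the same contrast: epithelial markers in macrophages summed to 0 to 4.89 CPM without hormone, 3.64 to 167 CPM with E2 and 3.38 to 38.9 CPM with E2 + P4, and fibroblast markers to 336 to 541, 412 to 974 and 574 to 4719 CPM, with 0 markers of either list called (3 of 3 epithelial and 3 of 5 fibroblast markers tested had an unadjusted p under 0.05; Pdgfra is at 0 by the gate). T cell markers summed to 19.6 to 88.1, 18.2 to 92.7 and 69.4 to 148 CPM, with positive log2 fold changes for 3 of 3 (median 1.03, 2 with an unadjusted p under 0.05). Of the monocyte markers 3 of 5 were positive and 1 had an unadjusted p under 0.05, Ly6c2 at 3.04 (edgeR unadjusted p = 0.0061, adjusted p = 0.28), and the summed list ran from 1631 to 3009, 944 to 2622 and 1407 to 1981 CPM. Dendritic cell markers were negative for 3 of 3, with Cd209a at -0.88 (edgeR unadjusted p = 0.0015, adjusted p = 0.18). The adipocyte marker Car3 stood at 1.58 (edgeR unadjusted p = 0.0097, adjusted p = 0.32). The part of these markers in the Retnla values was not tested. Retnla passed the adjusted threshold in 5 of 19 other settings, among them VCD_Vehicle_NormEnv added as a library without hormone (edgeR adjusted p = 0.030).

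Per cell, the same order was visible in part. After thinning, the median macrophage held 44, 85.5 and 69 Retnla UMIs of 3000 without hormone (no, low and high PBDE), 30, 66 and 23.5 with E2, and 22, 6 and 6 with E2 + P4. The share of macrophages with a Retnla UMI was 68.0%, 78.9% and 91.7% without hormone, 69.9%, 82.0% and 61.4% with E2, and 69.1%, 61.3% and 60.7% with E2 + P4. With E2 the share was above that without hormone at no and at low PBDE, although the medians were lower at all 3 PBDE levels.

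Mrc1 stood at 993, 1058 and 970 CPM without hormone, 820, 984 and 1122 CPM with E2 and 738, 588 and 871 CPM with E2 + P4 (no, low and high PBDE). The E2 + P4 libraries lay below the others of their PBDE level in 3 of 3. The log2 fold change for hormone was -0.30 (SE 0.13; edgeR unadjusted p = 0.044, adjusted p = 0.45), and it was -0.19 without VCD_Low_PBDE, -0.45 without VCD_High_PBDE and -0.19 with the tag as a term. The other 7 genes tested had no unadjusted p under 0.05, and the 9 together gave 3 positive and 6 negative values, with a median of -0.30 against -0.0067 over all genes.

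Adding P4 to E2 gave negative values for 9 of 9 genes, with a median of -0.29 against 0.00067 over all genes, where 0.213% of genes were called and 5.79% had an unadjusted p under 0.05. Chil3 stood at 85.2, 54.8 and 104 CPM with E2 and at 2.72, 20.8 and 3.38 CPM with E2 + P4. Its log2 fold change was -3.28 (SE 0.81; edgeR unadjusted p = 0.0022, adjusted p = 0.33), and -5.05 without VCD_Low_E2_P4. The Chil3 difference rested on few cells: 323 of the 389 Chil3 UMIs with E2 lay in 3 of 330 macrophages, and 38 UMIs lay in 8 of 422 macrophages with E2 + P4 and 41 in 5 of 190 without hormone. Lyve1 stood at 161, 261 and 267 CPM with E2 and at 122, 72.4 and 208 CPM with E2 + P4, lower in 3 of 3 pairs (log2 fold change -0.77, SE 0.26; edgeR unadjusted p = 0.015, adjusted p = 0.73). Without VCD_Low_E2_P4 the value of Lyve1 was -0.37. For Mrc1 the value was -0.38 (SE 0.15; edgeR unadjusted p = 0.032, adjusted p = 0.83), and -0.23 without VCD_Low_E2_P4. Markers of other cells moved with this contrast: fibroblast markers in macrophages summed to 412 to 974 CPM with E2 and 574 to 4719 CPM with E2 + P4, and T cell markers to 18.2 to 92.7 CPM and 69.4 to 148 CPM. No marker of these 2 lists was called (0 of 5 and 0 of 3 tested), and 0 of 5 and 2 of 3 had an unadjusted p under 0.05. Of the 5 monocyte markers 1 was positive and 4 were negative (median -0.24), and Ly6c2 (1.92) was the 1 with an unadjusted p under 0.05. The adipocyte marker Car3 (1.19) was also under that p. Epithelial markers were negative for 3 of 3 (median -1.09), with 0 under that p. Muscle genes (Tnnc2, Acta1, Mylpf, Ckm) and lymphocyte genes (Gzma, Gzmk, Nkg7) were among the 16 genes called higher of the 19 called, and the 3 called lower were the haemoglobin genes Hba-a2, Hba-a1 and Hbb-bs (log2 fold changes of -4.83 or below). Their part in the values of the members was not tested.

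Low PBDE against none gave log2 fold changes from -0.25 to 0.33 for the 9 genes, with 5 positive and 4 negative, a median of 0.0031 and 0 with an unadjusted p under 0.05. Over all genes 0.0112% were called, and 2.93% had an unadjusted p under 0.05. Retnla was above the library without PBDE in 2 of 3 pairs, with ratios of 1.34 without hormone and 1.21 with E2, and at 1.01 times it with E2 + P4 (95% Poisson interval 0.997 to 1.03, which includes no difference).

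High PBDE against none gave 7 positive and 2 negative values with a median of 0.30, against -0.0038 over all genes, where 0.135% of genes were called and 9.2% had an unadjusted p under 0.05. Lyve1 stood at 130, 161 and 122 CPM without PBDE (no hormone, E2, E2 + P4) and at 293, 267 and 208 CPM with high PBDE. Its log2 fold change was 0.87 (SE 0.26; edgeR unadjusted p = 0.0080, adjusted p = 0.36). Cbr2 stood at 387, 317 and 333 CPM without PBDE and 459, 618 and 466 CPM with high PBDE. The log2 fold change of Cbr2 was 0.58 (SE 0.17, edgeR unadjusted p = 0.0073, adjusted p = 0.35). Cd163 stood at 360, 278 and 256 CPM against 350.0, 524 and 386 CPM, higher in 2 of 3 pairs (0.54, SE 0.23; edgeR unadjusted p = 0.039, adjusted p = 0.52), and at 0.26 without VCD_High_PBDE_E2 and 0.84 without VCD_High_PBDE. The 3 libraries without PBDE and the 3 with high PBDE carry different tags, so this contrast and the tag can be separated in the fit through the low PBDE libraries alone. VCD_Vehicle_NormEnv and VCD_E2_ICI, not dosed with PBDEs and outside this fit, carry another tag than VCD_Vehicle and VCD_E2. They stood at 212 and 204 CPM for Lyve1, 496 and 332 CPM for Cbr2 and 412 and 248 CPM for Cd163. With the tag as a term 0 genes were called, and Lyve1, Cbr2 and Cd163 stood at 1.44, 1.00 and 1.31. T cell markers in macrophages summed to 88.1 to 148 CPM without PBDE and 18.2 to 69.4 CPM with high PBDE, fibroblast markers to 463 to 974 CPM and 336 to 574 CPM, and epithelial markers to 1.49 to 38.9 CPM and 0 to 3.64 CPM. Of the markers tested 0 of 3, 0 of 5 and 0 of 3 were called, and 3 of 3, 0 of 5 and 2 of 3 had an unadjusted p under 0.05, with Epcam at -1.75 and Krt8 at -6.49. The monocyte gene Ly6c2 stood at -3.38 (edgeR unadjusted p = 0.0050, adjusted p = 0.30) and the adipocyte marker Car3 at -1.85 (edgeR unadjusted p = 0.0030, adjusted p = 0.27). The 12 genes called were the muscle genes Tnnc2, Acta1, Mylpf, Ckm and Tnnt3, with AY036118, Gm42418, Il5, Hist1h2ap and Hmgb2, all lower with high PBDE, and Plk2 and the heat shock gene Hspa1b, both higher. The part of these genes and markers in the values of the members was not tested.

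**Figure D5:**
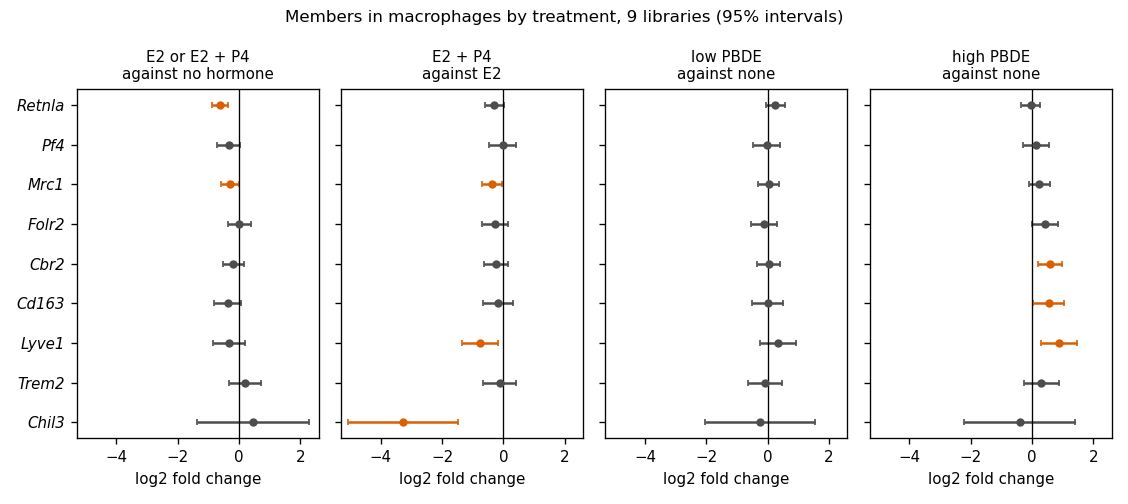
Log2 fold changes of the 9 genes tested in macrophages for the 4 contrasts over 9 libraries, with points for the edgeR estimate and bars for the 95% interval, orange where the unadjusted p was under 0.05. Retnla lies at -0.62 for hormone, Chil3 at -3.28 for added P4 and Lyve1 at 0.87 for high PBDE, and none of the 9 passed the adjusted threshold.

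The single libraries Intact, VCD_E2_ICI and VCD_Vehicle_NormEnv have no replicate check and were not tested, and the exact Poisson intervals given cover counting error only. In VCD_E2_ICI, Pf4 stood at 1.94 times its level in VCD_E2 (interval 1.83 to 2.05), Mrc1 at 1.25 times (1.14 to 1.37), Retnla at 0.849 times (0.831 to 0.868) and Trem2 at 0.451 times (0.295 to 0.666). The ratio of VCD_Vehicle to Intact was 1.58 for Folr2 (1.38 to 1.82), 1.26 for Retnla (1.23 to 1.29) and 0.702 for Lyve1 (0.525 to 0.936), with Mrc1 at 0.983 (0.880 to 1.10) and Cbr2 at 1.00 (0.836 to 1.20). The ratio of VCD_Vehicle_NormEnv to VCD_Vehicle was 1.82 for Trem2 (1.22 to 2.76), 1.63 for Lyve1 (1.24 to 2.15) and 1.28 for Cbr2 (1.09 to 1.51). VCD_E2_ICI and VCD_Vehicle_NormEnv each carry another table tag than the library they are set against. Chil3 was at 0 UMIs in VCD_E2_ICI, VCD_Vehicle_NormEnv and VCD_High_PBDE and at 48.7 and 46.3 CPM in Intact and VCD_Vehicle. Arg1 was at 27.6 CPM in Intact, from 17 UMIs in 1 of 43 cells, and at 0 in VCD_Vehicle.

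Related genes placed the members among macrophage programs. On a list of 22 resident macrophage genes, 20 were tested and 20 were higher in macrophages than in other cells (edgeR), with a median log2 fold change of 3.18 against -0.20 over all genes. They included Clec10a (5.95), Mgl2 (5.82) and Cd209d (6.14), which encode lectin receptors, F13a1 (6.41), a coagulation factor, and Fcna (7.03), a ficolin. MHC class II genes were higher for 7 of 7. Of 16 genes tested from the interleukin-4 and STAT6 list, 5 were higher and 9 lower in macrophages, where 27.8% of all genes were called higher and 42.9% lower: Ccl24 (7.08), a chemokine, Ear2 (3.67) and Egr2 (2.07), a transcription factor of the program, were higher, while Socs1 (-2.33), a cytokine signalling inhibitor, and Klf4 (-1.31) were lower. Of 15 lipid-associated genes, 10 were higher, among them Apoe (4.10) and Tyrobp (3.54), the signalling partner of TREM2, and 4 lower. Of 15 classical activation genes, 8 were higher, among them Tnf (5.33) and Cd86 (5.08), and 5 lower. Of 5 steroid receptor genes tested, 0 were higher and 4 lower, with Esr1, the estrogen receptor, at -2.23 against all other cells and 1.67 against other immune cells. Of 8 glucocorticoid and progesterone responsive genes, 3 were higher, among them Tsc22d3 (1.36), and 4 lower, among them Klf9 (-2.58), beside the same 27.8% and 42.9% over all genes. Of the 45152 other cells 31545 were fibroblasts, so these counts depend on the comparison cells. Against other immune cells 4 of these 8 were higher and 1 lower. There the interleukin-4 list had 5 higher and 8 lower, the lipid-associated list 9 and 3, the classical list 6 and 6 and the steroid receptors 1 and 2. Resident genes were higher for 19 of 20 and MHC class II genes for 7 of 7, beside 31.7% of all genes higher and 32.9% lower.

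In the treatment contrasts 0 genes of these 7 lists passed the adjusted threshold. MHC class II genes had 7 of 7 negative values for hormone (median -0.45, 7 with an unadjusted p under 0.05, against 10.8% of all genes). Their summed level was 43423 to 50866 CPM without hormone, 25853 to 35677 CPM with E2 and 39132 to 42756 CPM with E2 + P4. Dendritic cell markers, whose cells also carry MHC class II, were negative for 3 of 3 in this contrast (median -0.69) and summed to 85.1 to 171, 54.8 to 70.4 and 50.1 to 129 CPM, while T cell, epithelial and fibroblast markers were positive for 3 of 3, 3 of 3 and 5 of 5, and their part in the MHC class II values was not tested. Adding P4 gave 7 of 7 positive values (median 0.48, 6 with an unadjusted p under 0.05, against 5.79% of all genes), and 19 of 20 resident genes had negative values (median -0.30, 5 with an unadjusted p under 0.05), with summed levels of 10641 to 18907 CPM with E2 and 7872 to 14538 CPM with E2 + P4, lowest in VCD_Low_E2_P4. The classical list had 11 of 13 positive values (median 0.25, 4 with an unadjusted p under 0.05). Fibroblast markers were positive for 5 of 5 and T cell markers for 3 of 3 when P4 was added, and their part in these lists was not tested. For high PBDE, 20 of 20 resident genes had positive values (median 0.57, 13 with an unadjusted p under 0.05, against 9.2% of all genes). Their summed levels were 9256 to 10641 CPM without PBDE and 11900 to 18907 CPM with high PBDE. Glucocorticoid and progesterone responsive genes had 8 of 8 positive values (median 0.84, 6 with an unadjusted p under 0.05). The tag of the table names moves with both lists. In the same contrast T cell markers were negative for 3 of 3 (median -1.59, 3 with an unadjusted p under 0.05), fibroblast markers for 5 of 5, epithelial markers for 3 of 3 (median -3.62) and monocyte markers for 4 of 5, and their part in the values of these lists was not tested. The interleukin-4 list had a median of -0.058 for hormone, with 8 of 13 values negative and 3 at an unadjusted p under 0.05. It summed to 1709 to 2589 CPM without hormone, 2020 to 2052 CPM with E2 and 1563 to 1660 CPM with E2 + P4. Adding P4 gave it 10 of 13 negative values (median -0.24, 3 under that p). The glucocorticoid and progesterone list had 6 of 8 negative values for hormone (median -0.26) and 4 of 8 for added P4 (median 0.087). In each contrast 2 of these 8 were under that p. For hormone the lipid-associated list stood at 0.15, the classical list at 0.043 and the steroid receptors at -0.11.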

How the data were processed

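Single-cell RNA-seq was read in 12 libraries of mouse mammary gland. The deposited files hold raw UMI counts per gene and cell barcode, which the authors produced without normalization from Chromium 3′ version 3 libraries (Cell Ranger 3.1.0 and mm10, per the submitters' processing notes). The labels and the methods name different sequencers. Cells under 500 genes, under 1000 UMIs or over 5% mitochondrial UMIs were dropped, as in the study's methods, and no doublet caller was run. The members, the gene lists and the tests were chosen with earlier results of these data known.

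Counts were summed per library over macrophages, since cells of 1 library are not replicates, and given as CPM. Tests used edgeR 4.0.16 in R 4.3.3 (quasi-likelihood, TMM, filterByExpr, Benjamini-Hochberg over all genes tested, threshold 0.05): macrophages against other cells with library as a block, and hormone and PBDE additively in 9 libraries. With 1 library per group, the spread comes from departures from additivity, so p-values measure that spread and not a spread between animals. The quasi-likelihood test also draws each gene's spread toward that of all genes. Its p-values and 95% intervals thus rest on more than the 4 residual degrees of freedom of 1 gene. Poisson intervals at 95% cover counting error only. To compare cells of unequal depth, each was thinned once to 3000 UMIs, leaving out 146 shallower macrophages. Beside the 10 members, genes of the lists are named when among the 5 smallest adjusted p past the threshold. Genes named in the splits of macrophages by a member lie outside that rule. Single markers of other cells and genes called in the treatment contrasts were named after their values were seen. For each member with a mean of at least 20 CPM, the 3 genes most alike over libraries are named. Selenop is listed as Sepp1. Alternatives were DESeq2 1.42.0, no filter on low counts, other C1q and mitochondrial limits, a doublet rule, thinning, the tag in the table names as a term, VCD_Vehicle_NormEnv as a further library, other comparison cells and leaving out each library. Scripts were tested on simulated data. Python 3.11.15, numpy 2.4.6, pandas 2.3.3, scipy 1.17.1 and matplotlib 3.10.9 were used. The ovariectomy data of the study were not analysed here.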

Additional observations from a re-analysis of the deposited data

Results flagged for a closer look

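In the 9 VCD libraries the members were read for each contrast within 3 arms, 1 library against 1 (2 arms for Arg1 when P4 was added to E2, both libraries of the high PBDE arm being at 0), and in 19 of 50 member and contrast pairs, over 9 members, at least 1 arm moved up and another down by more than counting error. The difference between the arms was not tested, since each ratio rests on 1 library a side, and every ratio below is of CPM in summed macrophages. The pairs share libraries, so they are not independent. The share of all genes that meet the same rule was not counted, so the 19 pairs are not shown to be particular to these members.

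For E2 against no hormone, Folr2 ran from 0.868 without PBDE to 1.73 with high PBDE, a span of 2.00 times. Over the same arms Mrc1 ran from 0.825 to 1.16 (1.40 times), Cbr2 from 0.820 to 1.35 (1.64 times) and Pf4 from 0.622 to 1.31 (2.11 times). Cd163 ran from 0.570 with low PBDE to 1.50 with high PBDE (2.63 times). VCD_High_PBDE_E2 is the library that lies high in each of these 5.

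High PBDE against none showed the same library. Folr2 ran from 0.866 without hormone to 1.73 with E2 (2.00 times) and Pf4 from 0.737 to 1.55 (2.11 times), while Retnla ran the other way, from 0.733 with E2 to 1.27 without hormone (1.74 times).

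For E2 + P4 against no hormone, Folr2 ran from 0.732 with low PBDE to 1.39 with high PBDE (1.90 times) and Trem2 from 0.597 to 1.64 (2.75 times). For E2 + P4 against E2, Pf4 ran from 0.730 with high PBDE to 1.18 with low PBDE (1.61 times), and Trem2 from 0.613 with low PBDE to 1.37 with high PBDE (2.23 times).

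Low PBDE against none gave the rest, and in 4 of these 7 the E2 + P4 arm, which holds the library rich in fibroblast markers (VCD_Low_E2_P4), lay lowest. Lyve1 ran from 0.593 with E2 + P4 to 1.78 without hormone (3.00 times), Trem2 from 0.648 to 1.53 (2.36 times), Mrc1 from 0.797 with E2 + P4 to 1.20 with E2 (1.51 times) and Cbr2 from 0.790 to 1.18 (1.50 times). Cd163 ran from 0.869 with E2 to 1.18 without hormone (1.36 times) and Pf4 from 0.868 without hormone to 1.08 with E2 + P4 (1.25 times). Chil3 ran from 0.211 without hormone to 7.65 with E2 + P4 (36.2 times), on few UMIs: the intervals of these 2 ratios are 0.0923 to 0.442 and 3.25 to 20.8. Over the 3 PBDE levels, 1 cell held 26 of the 41 Chil3 UMIs without hormone and 1 cell held 23 of the 38 with E2 + P4. The intervals take UMIs as independent and do not cover such clustering in single cells, so no reversal is read from these 2 ratios.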

How the results depend on the processing

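Over 38 results and 628 alternatives, 548 were scored as kept, 13 newly passed, 0 ceased to pass, 56 counts or levels moved and 11 reversed. Kept meant the same direction and side of the threshold for a fold change, and less than 1 SD for a level. For a count of genes or members called it meant within a set factor of the main count, which held 7348 beside 10934 genes. The mean levels of the members moved by less than 1 SD in 59 of 60 alternatives, the exception being Mrc1 at 1086 CPM under the doublet rule. No paired analysis was possible because groups of 1 library share fewer than 2 replicate numbers. The design's own matching was used instead, with PBDE level as a term in the hormone contrasts and library as a block for macrophages against other cells. The causes were not tested.

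Hormone against none called 0 genes and became 53 with DESeq2, 263 with no filter on low counts, 9 with at least 10 C1q UMIs, 16 with a mitochondrial limit of 10%, 29 with VCD_Vehicle_NormEnv added, 5 with thinned cells and 18 without macrophages in which fibroblast markers took over 1% of UMIs (chosen after seeing the data). Leaving out 1 library gave 0 to 26 genes (4 without VCD_E2, 11 without VCD_E2_P4, 26 without VCD_Low_E2, 22 without VCD_Low_E2_P4, 12 without VCD_High_PBDE_E2, 1 without VCD_High_PBDE_E2_P4). Among the members, 1 (Retnla) was called with DESeq2, no filter, the 10% limit, VCD_Vehicle_NormEnv added and thinned cells, and 0 when any library was left out. Over all 19 settings Retnla stayed between -0.75 and -0.47, with adjusted p from 1.2e-05 to 0.52.

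P4 added to E2 called 19 genes and became 194 with no filter and 6 under the doublet rule, and 5 to 35 when 1 library was left out (11 without VCD_Vehicle, 10 without VCD_E2, 7 without VCD_E2_P4, 5 without VCD_Low_E2_P4, 35 without VCD_High_PBDE_E2). Of the members 2 were called with no filter (Lyve1 and Chil3) and 1 with thinned cells (Chil3). Low PBDE called 1 gene and became 5 with DESeq2, 92 with no filter, 0 with at least 10 C1q UMIs, the doublet rule, the fibroblast limit added after seeing the data, the tag term, VCD_Vehicle_NormEnv or thinned cells, and 0 to 29 when 1 library was left out (29 without VCD_Low_E2). High PBDE called 12 genes and became 25 with DESeq2, 247 with no filter, 6 with at least 3 and 19 with at least 10 C1q UMIs, 2 under the doublet rule, 0 with the tag term and 3 with thinned cells, and 0 to 20 when 1 library was left out (5 without VCD_Vehicle, VCD_E2_P4, VCD_Low_PBDE or VCD_Low_E2_P4, 20 without VCD_Low_E2, 0 without VCD_High_PBDE_E2_P4). Of the members 2 were called with no filter (Lyve1 and Cbr2).

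Against other cells, the 8 members called stayed called in all 22 settings. Arg1 (0.01) reversed to -0.63 with DESeq2, -0.0023 and -0.11 with at least 3 and 10 C1q UMIs, -0.15 with the 10% limit, -0.12 under the doublet rule, -2.73 against other immune cells, -0.52 without Intact, -0.12 without VCD_E2_P4 (-0.52 to 0.15 when 1 library was left out) and -0.047 without VCD_Low_E2_P4. Chil3 (0.71) reversed to -0.25 with DESeq2 and -2.69 against other immune cells, and passed at 1.19 under the doublet rule (edgeR adjusted p = 0.048).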

Other observations

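Over the 12 libraries, the genes whose CPM in macrophages followed a member most closely were found by Spearman correlation of log2(CPM + 1) among 5432 genes whose mean reached 20 CPM, as a description without a test. Retnla was most like Stat3 (0.923), Csrnp1 (0.881) and Prkcd (0.881), Folr2 like Nras (0.958), Trib1 (0.888) and Atp6v1a (0.860), Mrc1 like Ip6k1 (0.958), Ndel1 (0.944) and Hmox1 (0.916), and Pf4 like Mmp9 (0.888), Eif1 (0.881) and Kitl (0.874). Lyve1 was most like F13a1 (0.944), Lifr (0.930) and March8 (0.923), Cbr2 like Mapk14 (0.937), Tuba1c (0.909) and Irs2 (0.902), and Cd163 like Cbr2 (0.881), Mapk14 (0.874) and Foxred2 (0.867). Trem2 was most like Smim15 (0.930), 9030624J02Rik (0.909) and Snrk (0.902), and Chil3 like Pdcd6 (0.880), Rnf111 (0.852) and Bscl2 (0.838). The libraries share treatments, so these values do not separate treatment from covariation within a treatment.

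Cells with at least 10 Chil3 UMIs, inside or outside the gate, made up 0.190% to 1.06% of passing cells per library, lowest in VCD_High_PBDE_E2 (5 of 2636 cells) and highest in VCD_E2 (39 of 3669 cells). The 8 such cells inside the gate were led by Saa3, Clec4e and Il1rn, genes of acute inflammation. Over all 262 such cells, Ngp and Camp, granule genes of developing neutrophils, led, and 3 of 4 neutrophil markers were above their level in all cells, against 1 of 4 in the 187 of them among other immune cells.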
